A study of Mus musculus with 4 samples.

Results

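Cells in the G2 and M phases were picked out of 4 single-cell RNA libraries of cultured mouse adipose cells by the UMIs of a few late cell cycle genes. A UMI (unique molecular identifier) stands for 1 captured RNA molecule. A droplet barcode was taken as a cell with 5000 to 75000 UMIs, 200 to 7500 genes and under 10% of UMIs from mitochondrial genes. It was called a G2 and M phase cell when *Cdc20*, *Plk1*, *Aurka*, *Cenpa* and *Ccnb1* together gave at least 10 UMIs and *Hist1h1b*, a linker histone gene transcribed while DNA is copied, gave fewer than 3. In all, 4718 of 28262 barcodes within the limits met the rule, or 16.7%. They were compared within each library with reference cells under the same limits that had neither a *Hist1h1b* nor a *Top2a* UMI, 12093 in number after members had been set aside.

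The 4 libraries were made from chow-fed male C57BL/6J mice, 1 library per condition. De-differentiated fat (DFAT) cells filled the libraries iWAT_DFAT and eWAT_DFAT. They arise when floating adipocytes from the inguinal (iWAT) or epididymal (eWAT) white fat depot are kept under the roof of a filled flask and turn into spindle-shaped dividing cells. For iWAT_SVF and eWAT_SVF, the stromal vascular fraction (SVF) of each depot was grown on plastic, and its cells are what the study calls adipose stem and progenitor cells (ASPCs). All cells were grown in culture and sorted for exclusion of the dye 7-AAD, which stains dead cells, and how many animals went into a library is not given in the sources used here. Values below follow the order iWAT_DFAT, eWAT_DFAT, iWAT_SVF and eWAT_SVF unless libraries are named.

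In G2, after DNA has been copied, cells build up cyclin B and the kinases that work with it, and in M phase the spindle forms, chromosomes attach to it through kinetochores, and the anaphase promoting complex, switched on by CDC20, marks cyclin B for destruction. The genes for these proteins share a timetable. Many of them carry CCAAT boxes, which the factor NF-Y binds, and a cell cycle genes homology region (CHR), which the MuvB complex binds together with repressors in resting cells and with B-MYB and FOXM1 in G2.

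The 5 genes of the rule are shown first by their promoters, so that the letters counted further on can be seen in place. All 5 are among the genes counted there. Each line runs 5′ to 3′ on the gene's strand over 150 bases before and 50 bases after the start of the RefSeq transcript (assembly GRCm38.p6), and capitals mark each TTTGAA (a CHR), CCAAT or its reverse complement ATTGG. *Cdc20*, the activator of the anaphase promoting complex, is read from chr4:118437294-118437493 (minus strand), *Plk1*, a mitotic kinase, from chr7:122159285-122159484 (plus), *Aurka*, the kinase of the spindle poles, from chr2:172370521-172370720 (minus), *Cenpa*, the centromeric histone, from chr5:30666736-30666935 (plus) and *Ccnb1*, cyclin B1, from chr13:100786437-100786636 (minus).
Cdc20: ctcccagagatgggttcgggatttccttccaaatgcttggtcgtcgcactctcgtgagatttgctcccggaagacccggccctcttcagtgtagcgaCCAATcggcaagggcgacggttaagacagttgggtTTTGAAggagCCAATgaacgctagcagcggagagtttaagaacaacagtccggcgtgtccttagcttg
Plk1: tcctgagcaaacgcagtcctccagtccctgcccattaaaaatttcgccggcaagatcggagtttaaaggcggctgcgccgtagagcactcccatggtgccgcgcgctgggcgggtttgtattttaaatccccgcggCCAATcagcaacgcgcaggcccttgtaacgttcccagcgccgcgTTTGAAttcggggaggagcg
Aurka: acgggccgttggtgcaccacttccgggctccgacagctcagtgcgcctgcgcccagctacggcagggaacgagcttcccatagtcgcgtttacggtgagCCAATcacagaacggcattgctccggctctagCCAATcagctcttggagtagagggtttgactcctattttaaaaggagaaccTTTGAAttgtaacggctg
Cenpa: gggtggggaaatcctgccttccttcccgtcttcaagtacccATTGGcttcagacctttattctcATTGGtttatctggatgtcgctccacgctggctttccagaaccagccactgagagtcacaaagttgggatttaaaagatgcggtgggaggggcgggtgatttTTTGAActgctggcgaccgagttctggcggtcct
Ccnb1: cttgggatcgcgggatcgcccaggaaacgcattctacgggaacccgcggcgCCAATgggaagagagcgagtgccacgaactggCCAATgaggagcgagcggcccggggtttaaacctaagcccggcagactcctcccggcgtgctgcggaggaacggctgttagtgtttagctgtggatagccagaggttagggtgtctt
The CHR letters began at position -18 in *Cdc20*, 31 in *Plk1*, 33 in *Aurka* and 17 in *Cenpa*, counted from the transcript start, and *Ccnb1* had none in its window. All 5 windows held CCAAT on one strand or the other, at -53 and -8 in *Cdc20*, -14 in *Plk1*, -51 and -19 in *Aurka*, -109 and -86 in *Cenpa* and -99 and -67 in *Ccnb1*. A match is a run of letters, not a bound site.

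The share of G2 and M phase cells was 16.99% of 7629 barcodes within the limits in the iWAT_DFAT library (exact 95% binomial interval 16.2 to 17.8). In the eWAT_DFAT library it was 17.05% of 6464 (16.1 to 18.0). In the iWAT_SVF library it was 19.7% of 7424 (18.8 to 20.6), and in the eWAT_SVF library 12.7% of 6745 (11.9 to 13.5). The DFAT libraries lay close together, the SVF libraries lay above and below them, and these intervals hold counting error only, so that with 1 library per condition no test between conditions was possible. After each cell had been thinned to 5000 UMIs, with at least 3 marker UMIs asked for, the shares were 16.1%, 18.0%, 19.5% and 14.3%, again highest in iWAT_SVF and lowest in eWAT_SVF. The limit of fewer than 3 *Hist1h1b* UMIs was kept on the thinned counts, where it was looser than on the full counts. The order of the DFAT libraries was not kept under every setting, since with at least 20 marker UMIs 8.52% of barcodes were members in iWAT_DFAT and 7.74% in eWAT_DFAT, and with no *Hist1h1b* UMI 12.3% and 10.98%.

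The *Hist1h1b* limit weighed differently on the libraries. Barcodes with 10 or more marker UMIs that it shut out numbered 396, 689, 494 and 521, which was 23.4%, 38.5%, 25.2% and 37.8% of all with that many marker UMIs. Both eWAT libraries thus lost more of them than both iWAT libraries. Without the limit, a setting chosen after seeing the data, barcodes with 10 or more marker UMIs made up 22.2%, 27.7%, 26.4% and 20.4%, so that eWAT_DFAT and not iWAT_SVF was highest. A further 1049, 1112, 891 and 873 barcodes had 3 or more *Hist1h1b* UMIs and fewer than 10 marker UMIs. These are called histone-high cells below and serve as another group of dividing cells. The shares of histone-high cells were 13.8%, 17.2%, 12.0% and 12.9%. The barcodes that the limit shut out meet the same marker limit as members, but their gene levels are not given here.

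**Figure D1:**
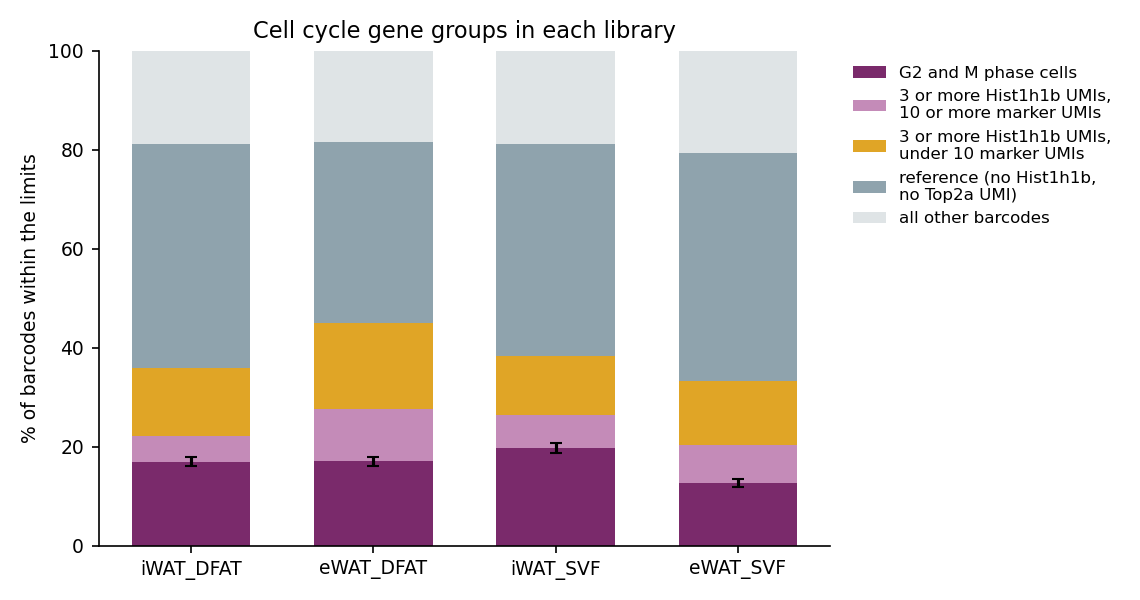
Stacked bars give the percentage of barcodes within the limits that fell in each group, for each of the 4 libraries, with exact 95% binomial intervals (counting error only) on the G2 and M phase share. With the *Hist1h1b* limit the G2 and M phase share was highest in iWAT_SVF (19.7%) and lowest in eWAT_SVF (12.7%), while cells with both signals were most frequent in eWAT_DFAT (10.7%), which was highest (27.7%) once both groups were added.

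Members had a median of 20, 18, 21 and 20 marker UMIs, and the highest cell of each library had 66, 79, 99 and 92. Just inside the limit, 74, 99, 88 and 61 members had a sum of 10, and just outside it 74, 83, 85 and 68 barcodes had a sum of 9 with few *Hist1h1b* UMIs. On the histone side, 91, 139, 95 and 99 members had 2 *Hist1h1b* UMIs, and 35, 95, 56 and 70 barcodes with enough marker UMIs were left out with 3. Most members had no *Hist1h1b* UMI at all (72.3%, 64.4%, 75.8% and 68.3%), while 23.5%, 30.1%, 27.3% and 35.7% had no *Top2a* UMI. Those with neither, 260, 263, 350 and 245 cells, would also have met the rule for reference cells.

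Members were the deeper cells. Their median was 25770, 28307, 26808 and 27880 UMIs, against 18913, 22453, 21480 and 25202 in reference cells, and 5534, 5534, 5464 and 5462 genes against 4627, 4858, 4670 and 4958. Histone-high cells were deeper still, at a median of 27761, 30282, 28586 and 31488 UMIs. The rules favoured this direction in advance. Members and histone-high cells had to reach a number of UMIs of certain genes, and reference cells had to lack them. The part of the rules in the gap was not tested. Mitochondrial genes made up 2.94%, 1.85%, 2.12% and 2.14% of the UMIs of a median member and 3.21%, 2.02%, 2.24% and 2.28% of those of a median reference cell. The cells with the highest Scrublet doublet scores, kept here, made up 9.72%, 6.99%, 9.22% and 7.59% of members and 2.52%, 1.52%, 2.71% and 2.80% of reference cells. Scrublet's own threshold marked at most 0.0445% of a library and had not worked. Between 13 and 20 barcode sequences within the limits were shared by any 2 libraries, and at most 1 of them was a member in both.

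*Cenpf* (ENSMUSG00000026605, chromosome 1, 189640606 to 189688086 in mm10), a kinetochore protein gene fixed as a marker but not among the 5 genes of the rule, was looked at to check the label. The check is not independent, since reference cells had to lack a *Top2a* UMI and *Cenpf* went with *Top2a* among members too, with a log2 ratio of -1.63, -1.88, -1.96 and -2.23 in members without a *Top2a* UMI against those with one. It was counted at 309, 170, 260 and 160 CPM in members, where CPM is the UMIs of a gene per 1000000 UMIs summed over the cells of a group. In reference cells it stood at 8.38, 6.49, 6.93 and 2.70 CPM, and in histone-high cells at 51.8, 46.4, 47.9 and 29.3. Summed over all members, the level was thus highest of the 3 groups in every library, and the iWAT members were above the eWAT members in both kinds of culture. Members with a marker sum of 10 to 14 stood lower, at 113, 70.0, 76.2 and 34.3 CPM, and members without a *Top2a* UMI at 115, 56.7, 79.9 and 45.4. In every library both subsets were thus nearer to the histone-high level than to that of all members. At 5000 UMIs per cell, 63.8%, 45.6%, 55.2% and 40.3% of members had a *Cenpf* UMI, against 3.74%, 3.38%, 3.24% and 1.58% of reference cells. At full depth the shares were 92.1%, 81.9%, 85.3% and 72.9% against 10.3%, 10.7%, 9.47% and 4.84%. RNA outside cells, from droplets with 1 to 100 UMIs, held *Cenpf* at 70.9, 58.0, 75.9 and 34.8 CPM, between members as a whole and reference cells in every library, and in eWAT_SVF slightly above members with a sum of 10 to 14.

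Members and reference cells were told apart by genes of this same contrast, so the ratios that follow are a description with no test. A gene was compared when it reached 20 CPM in the higher group of each library, which 5392 genes did. Of these, 160 were past 2-fold higher in members in all 4 libraries (2.97%) and 4 were past 2-fold lower (0.0742%). Whatever the size of the ratio, 2334 were higher in all 4 libraries (43.3%) and 1416 lower in all 4 (26.3%), and counts of list genes by direction below are to be read against these shares. A gene far below 20 CPM in reference cells could be compared only through members. That such a gene was past 2-fold higher was set by the limit of 20 CPM, in every list below. Within single libraries the shares past 2-fold were 4.04%, 2.92%, 3.94% and 3.42% higher and 1.65%, 1.45%, 0.435% and 0.395% lower. The median log2 ratio over all genes compared was 0.08, 0.03, 0.07 and 0.05. A log2 ratio of 1 is a doubling. The ratios depend on having kept members out of the reference. With those that met both rules put back, the median log2 ratio, as a mean over the libraries, went from 4.58 to 3.42 for the rule genes, from 4.58 to 3.47 for mitotic kinesins, from 3.99 to 3.22 for the passenger complex and from 3.67 to 2.81 for the published G2M score genes.

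The genes of the rule are given as a description of how the members were chosen. *Cdc20* stood at 198, 172, 245 and 202 CPM in members and at 7.67, 11.7, 10.2 and 6.89 in reference cells. *Cenpa* stood at 289, 261, 285 and 311 CPM against 33.1, 34.8, 27.7 and 23.8. *Plk1*, *Aurka* and *Ccnb1* lay between 58.1 and 168 CPM in members. Of the 5, *Cenpa* had the highest level in reference cells, and in histone-high cells it was at 36.3, 37.0, 28.4 and 27.7 CPM, close to its reference level.

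Genes of the mitotic cyclins and of CDK1 control were taken next. Of 17 listed, 8 were compared and 6 were past 2-fold higher in all 4 libraries. *Cdk1* (ENSMUSG00000019942, chromosome 10, 69335146 to 69352938), the kinase that cyclin B activates, was counted at 195, 192, 244 and 191 CPM in members and at 10.1, 13.7, 15.7 and 11.6 in reference cells, a log2 ratio of 4.27, 3.81, 3.96 and 4.04. *Ccna2*, cyclin A2, stood at 107, 86.8, 124 and 99.1 CPM against 5.94, 5.19, 4.93 and 2.95. *Cks2*, a small subunit of CDK complexes, stood at 344, 302, 390 and 303 CPM against 36.5, 61.0, 41.3 and 29.6. For each of the 3, the lowest member level of the 4 libraries was above the highest reference level. The other 9 genes of the list, among them the *Cdc25* phosphatase genes and *Wee1*, stayed under 20 CPM in at least 1 library.

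The chromosomal passenger complex, which corrects faulty chromosome attachments, was past 2-fold higher with all 4 of its genes. Its median log2 ratio was 4.203, 3.47, 4.01 and 4.28. *Birc5*, or survivin, was counted at 377, 333, 341 and 305 CPM in members and at 37.2, 41.0, 23.9 and 17.5 in reference cells. *Aurkb*, its kinase, reached only 39.8, 27.7, 37.9 and 22.4 CPM, but against 1.48, 1.61, 1.51 and 1.04. *Cdca8* (borealin) and *Incenp* had log2 ratios between 2.93 and 4.67.

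The spindle checkpoint holds anaphase back until chromosomes are attached. Of 13 listed genes, 9 were compared, all 9 were higher in members of all 4 libraries, and 7 were past 2-fold (median log2 ratio 2.90, 2.57, 2.90 and 2.99). *Bub1b* stood at 82.6, 37.8, 59.8 and 48.1 CPM in members and at 5.29, 4.38, 3.61 and 3.04 in reference cells. *Knl1*, the kinetochore scaffold that recruits the checkpoint proteins, had a log2 ratio of 5.17, 4.20, 4.59 and 5.03.

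Kinetochore and centromere genes followed the same course. Of 29 listed, 18 were compared and 17 were past 2-fold higher in all 4 libraries, with a median log2 ratio of 2.70, 2.32, 2.80 and 2.77. *Cenpe*, a kinetochore motor, was counted at 252, 170, 195 and 142 CPM in members against 5.30, 7.39, 4.98 and 3.76.

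Among the lists that the rule did not use, mitotic kinesins had the largest median. All 7 mitotic kinesin genes that could be compared, of 12 listed, were past 2-fold higher, and their median log2 ratio of 4.89, 3.98, 4.67 and 4.79 was close to that of the rule genes, a median that was lower, at a mean of 3.47, with the members that met both rules in the reference. *Kif11*, the motor that pushes spindle poles apart, stood at 90.6, 45.6, 59.0 and 41.2 CPM against 1.74, 1.61, 1.45 and 1.49. *Kif23*, which works in the midzone between separating chromosomes, stood at 96.2, 69.2, 91.2 and 58.9 CPM against 3.24, 4.38, 3.58 and 1.97. Genes this low in reference cells could be compared only through members, so the limit on CPM had set that they were past 2-fold higher.

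Of 24 listed genes of spindle assembly and the centrosome, 20 were compared, all 20 were higher in every library and 17 were past 2-fold (median log2 ratio 3.03, 2.62, 3.24 and 3.30). *Aspm*, a spindle pole protein, was barely seen in reference cells, at 1.38, 1.15, 0.867 and 0.458 CPM, against 86.3, 35.3, 50.9 and 33.8 CPM in members. *Prc1*, which bundles the midzone microtubules, stood at 243, 225, 271 and 204 CPM against 5.75, 9.66, 7.66 and 8.37. *Nusap1*, a spindle-associated protein, had a log2 ratio of 5.43, 5.12, 5.93 and 6.30.

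Tubulin genes, whose products make up the microtubules of every cell, differed less. Of 11 listed, 10 were compared, 8 were higher in all 4 libraries and 2 past 2-fold, with a median log2 ratio of 1.06, 0.74, 0.89 and 1.04. *Tubb4b* was counted at 424, 477, 588 and 588 CPM in members and at 116, 214, 208 and 202 in reference cells. *Stmn1*, a microtubule destabiliser placed in the same list, stood at 257, 229, 365 and 362 CPM against 71.4, 72.0, 91.9 and 88.2.

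**Figure D2:**
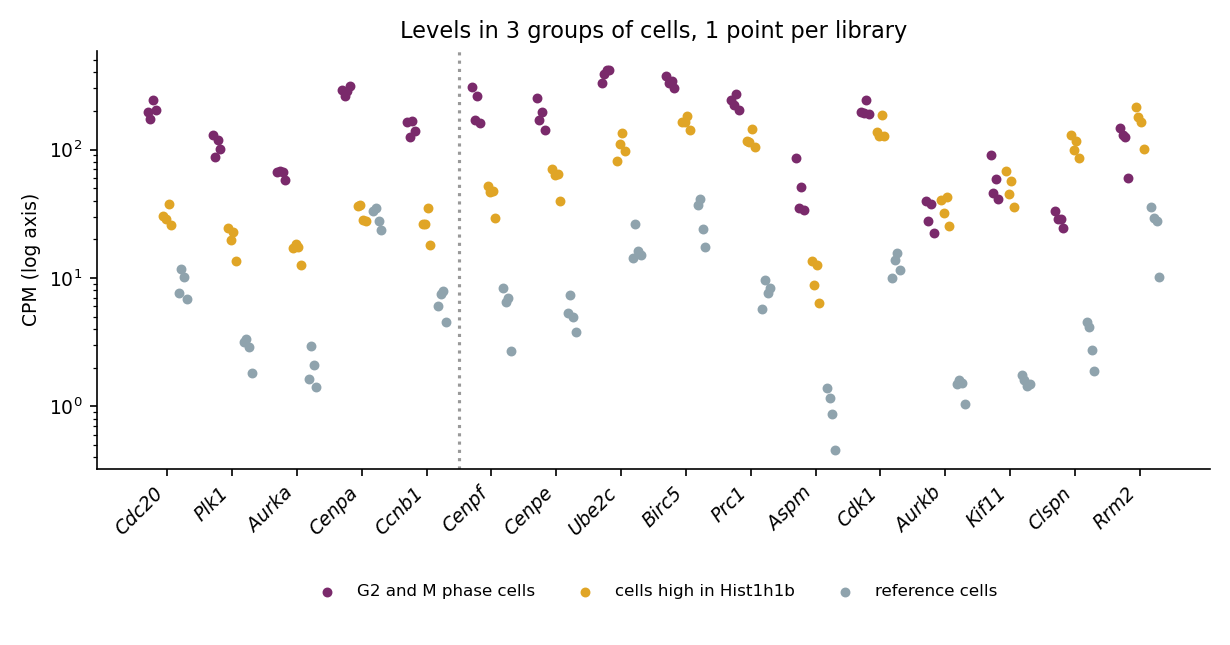
Each point is the level of a gene, in CPM on a log axis, in 1 library, for G2 and M phase cells, histone-high cells (3 or more Hist1h1b UMIs and under 10 marker UMIs) and reference cells; the 5 genes left of the dotted line were used to choose the cells. Cenpf stood at 160 to 309 CPM in members of the 4 libraries and at 2.70 to 8.38 in reference cells, while Clspn was highest in histone-high cells.

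Of the 24 genes of the anaphase promoting complex and of cohesin control, 20 were compared, and their median log2 ratio of 0.52, 0.36, 0.46 and 0.42 was small. The 6 that were past 2-fold higher included *Ube2c*, the enzyme that hands ubiquitin to the complex (ENSMUSG00000001403, chromosome 2, 164769898 to 164778822). It was counted at 331, 389, 419 and 414 CPM in members and at 14.2, 26.1, 16.3 and 15.1 in reference cells, a log2 ratio of 4.54, 3.90, 4.68 and 4.78. *Sgo2a*, a protector of centromeric cohesin, stood at 68.3, 45.2, 52.6 and 36.8 CPM against 2.08, 3.39, 1.42 and 0.928. *Rad21*, a cohesin subunit, differed less, at 153, 87.5, 124 and 88.5 CPM against 45.0, 30.1, 29.4 and 23.5.

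Condensin subunits compact chromosomes. Of 8 listed, 5 were compared and 4 were past 2-fold higher, among them *Smc2* at 235, 207, 228 and 162 CPM against 21.4, 28.1, 21.0 and 12.8. Of 14 nuclear envelope and lamin genes, 9 were compared, all 9 were higher in every library and 5 were past 2-fold. *Tmpo*, which encodes lamina-associated proteins, stood at 158, 123, 146 and 121 CPM against 25.2, 30.01, 35.9 and 30.3. *Vrk1*, a kinase that acts on the nuclear envelope, had a log2 ratio of 1.84, 1.64, 1.98 and 2.25.

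Cytokinesis genes split. Of 13 listed, 11 were compared, and 4 were past 2-fold higher in all 4 libraries, *Anln*, *Ect2*, *Racgap1* and *Cit*, while the median of the list was only 0.31, 0.12, 0.21 and 0.25. *Anln*, the scaffold of the contractile ring, was counted at 149, 103, 169 and 144 CPM in members and at 9.04, 10.2, 13.8 and 16.1 in reference cells. *Ect2*, which acts at the ring, stood at 61.3, 48.9, 64.2 and 49.2 CPM against 1.77, 3.28, 3.07 and 1.81.

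The factors that read the promoters were seldom measured well. Of 17 G2 and M transcription factor genes, 6 were compared, and all were higher in every library, as were 43.3% of all genes compared, without any being past 2-fold. *Tfdp1*, the partner of E2F factors, was highest among them by ratio, at 64.7, 76.3, 70.7 and 58.2 CPM against 38.3, 44.5, 41.7 and 34.6. *Nfyb*, an NF-Y subunit, had a log2 ratio of 0.41, 0.44, 0.51 and 0.42. *Foxm1* fell under the limit of 20 CPM in 1 library and was looked up because of its role, outside the rule for named genes. It stood at 28.5, 19.5, 27.8 and 24.4 CPM in members and at 3.08, 2.92, 2.93 and 2.83 in reference cells. *Mybl2*, B-MYB, looked up likewise, stood at 4.87, 7.22, 7.04 and 5.98 CPM in members, 0.901, 1.28, 1.32 and 0.842 in reference cells and 24.1, 23.95, 29.6 and 22.0 in histone-high cells.

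A published list of 54 genes used to score G2 and M phase gave 47 that could be compared, all 47 higher in every library and 43 past 2-fold, with a median log2 ratio of 3.68, 3.30, 3.82 and 3.87. It holds *Cdc20*, *Aurka* and *Cenpa*, which the rule used, so it is no independent reading of the label. Of the 43 genes of the published S phase list, 22 were compared and 14 of these were past 2-fold higher. Genes low in reference cells entered only where members reached 20 CPM, and 21 were not compared, so this count says nothing of the list as a whole.

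Against histone-high cells the picture changed. Of 5490 genes compared, 25 were past 2-fold higher in members in all 4 libraries (0.455%) and 61 past 2-fold lower (1.11%). Within single libraries 0.802%, 0.483%, 0.712% and 0.741% were higher and 1.65%, 1.63%, 1.88% and 1.8% lower. Histone-high cells were themselves chosen by an S phase histone, and a gene could enter through them alone, so counts over the S phase and replication lists are not read here. *Clspn*, claspin, which watches over replication forks, was counted at 33.5, 28.6, 28.9 and 24.5 CPM in members, at 129, 100.2, 117 and 86.3 in histone-high cells and at 4.55, 4.13, 2.74 and 1.87 in reference cells. *Mcm5*, a subunit of the replicative helicase, stood at 32.9, 27.7, 31.0 and 27.0 CPM in members, 91.1, 63.2, 82.2 and 63.4 in histone-high and 9.24, 11.6, 7.89 and 5.66 in reference cells. Both genes were thus lower in members than in histone-high cells and higher than in reference cells.

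The G2 and M genes were spread over a wide range against histone-high cells. List medians of the log2 ratio were 0.69 to 0.90 for kinesins, 0.68 to 1.011 for spindle assembly, 0.64 to 0.97 for the G2M score and 0.36 to 0.57 for the passenger complex. They were 0.24 to 0.37 for mitotic cyclins, 0.31 to 0.37 for the checkpoint, 0.18 to 0.37 for kinetochores and 0.12 to 0.24 for condensins, of which 2 genes were past 2-fold lower. For cytokinesis they were 0.06 to 0.17, for the nuclear envelope 0.03 to 0.10 and for the G2 and M transcription factors -0.55 to -0.33, with 2 genes past 2-fold lower. Genes from both ends of the range are given here, chosen after their values were seen. *Cdc20* and *Cenpa*, which the rule used, were higher by log2 2.59 to 2.96 and 2.82 to 3.49. *Cenpf* was higher by 1.87 to 2.58, *Aspm* by 2.00 to 2.68 and *Ube2c* by 1.65 to 2.09, without having been used. At the other end, *Aurkb* differed by only -0.20 to -0.03, *Incenp* by -0.19 to 0.06, *Melk* by -0.17 to 0.16 and *Kif11* by 0.01 to 0.42. These last genes were well above reference in members and about as high in histone-high cells. Of the 48 G2M score genes compared there, which include *Cdc20*, *Aurka* and *Cenpa* of the rule, 14 were past 2-fold higher and none lower.

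Replication-dependent histone mRNAs mostly end without a poly(A) tail, while the library chemistry captures poly(A) RNA. Of 26 such genes 4 reached the limit against reference cells, with a median log2 ratio of -0.08, -0.08, -0.01 and -0.10. The direction depended on the processing: averaged over the libraries it turned to 0.01 with reference cells weighted to the depth of the members and to 0.66 with a limit of 5 CPM. *Hist1h4i* was higher in members of all 4 libraries, by log2 0.80 to 1.18, and *Hist1h2bc* was lower, at 45.3, 64.7, 98.2 and 138 CPM against 76.3, 137, 197 and 250. Against histone-high cells 10 of 13 histone genes were past 2-fold lower, a contrast that the *Hist1h1b* limit had set.

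**Figure D3:**
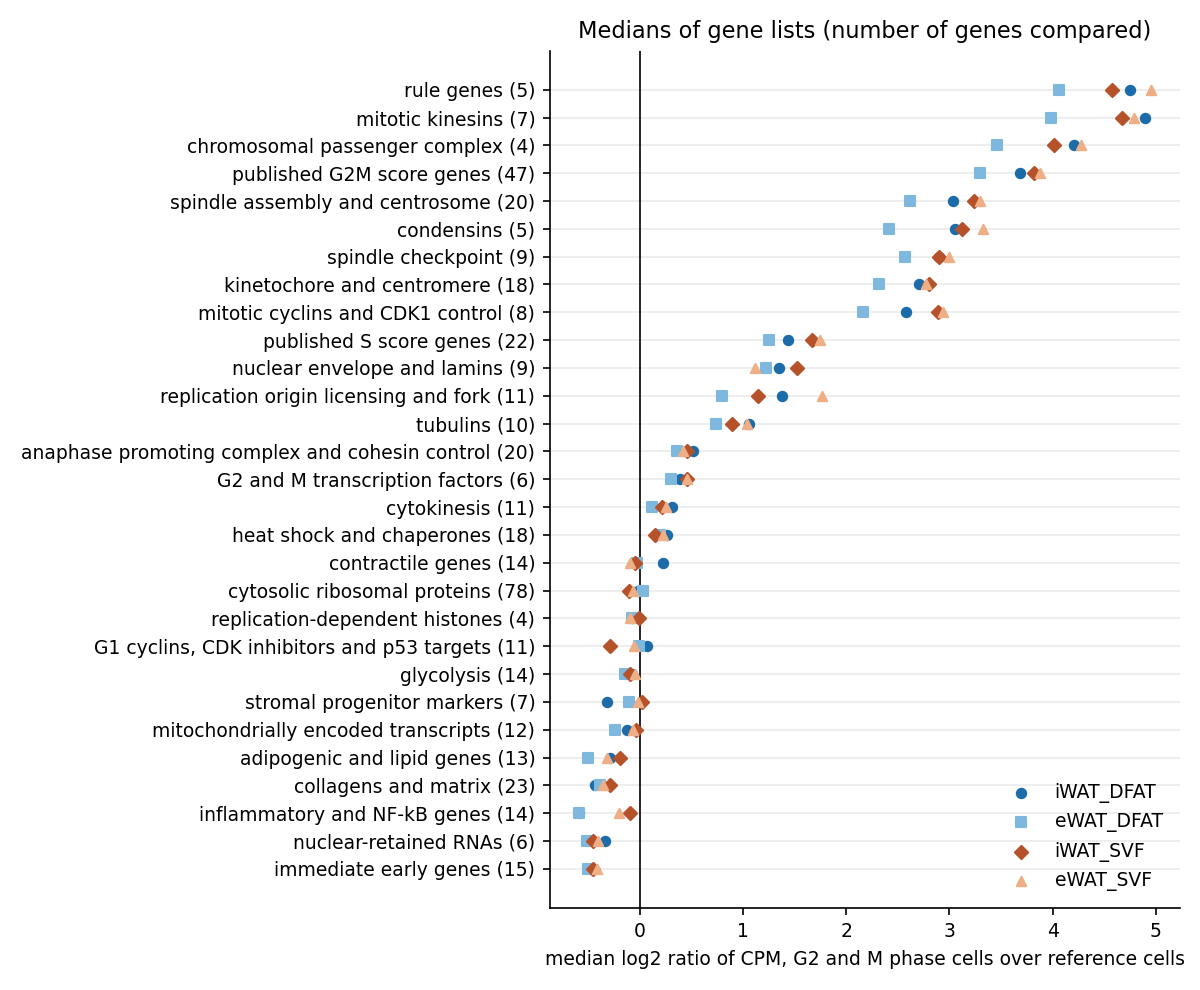
Points give the median log2 ratio of CPM between G2 and M phase cells and reference cells over the genes of each list, 1 point per library, with the number of genes compared in brackets. Lists of mitotic cyclin, checkpoint, kinetochore, spindle assembly and kinesin genes lie between 2.17 and 4.89, the published S score list (22 of 43 genes compared) between 1.25 and 1.75, and lists of matrix, immediate early and nuclear-retained RNAs below 0. Genes low in reference cells entered only where members reached 20 CPM, so medians above 0 describe the genes compared and not whole lists.

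The letters marked in the sequences above were counted in the promoters of the 160 genes past 2-fold higher. A RefSeq window from 250 bases before to 50 after the start was matched for 129 of them (80.6%) and for 4367 of the 5392 genes compared (81.0%), by symbol or unique synonym. TTTGAA or TTCGAA stood on either strand in 73 of the 129 (56.6%), in 525 of 4238 other genes compared (12.4%) and in 5254 of all 27025 windows (19.4%). Within 50 bases of the start, the same letters stood in 50 of the 129 (38.8%) against 2.78% of the others and 5.49% of all. CCAAT was found in 84 (65.1%), against 37.7% of the others and 37.9% of all windows. Both together stood in 54 (41.9%), against 4.77% and 7.70%. Of 47 windows of the published G2M score genes, 35 had the CHR letters (74.5%) and 29 both (61.7%). Of the 14 S score genes past 2-fold higher, 8 had a window, and 1 of these had the CHR letters (12.5%), with none within 50 bases of the start, while 6 had CCAAT. Without the 5 genes of the rule, 69 of 124 windows (55.6%) had the CHR letters, 79 (63.7%) CCAAT and 50 (40.3%) both.

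Among the 52 genes past 2-fold higher that stood on no list, *Depdc1a*, *Pbk* and *Arhgap11a* had the largest ratios in their lowest library. *Depdc1a* was counted at 57.7, 57.6, 47.3 and 35.6 CPM in members and at 1.35, 3.35, 1.62 and 1.32 in reference cells. *Pbk*, a mitotic kinase, stood at 37.1, 39.1, 43.8 and 31.2 CPM against 1.28, 2.69, 1.82 and 0.990, and was as high in histone-high cells (36.7, 38.6, 50.6 and 30.6). *Arhgap11a* had a log2 ratio of 4.48, 3.48, 4.13 and 3.93. *Shcbp1*, *Cip2a*, *Dbf4*, *Diaph3*, *Pclaf*, *Mns1* and *Lockd*, the others named by the same rule, had log2 ratios between 2.36 and 4.12. *Dbf4* activates the kinase that fires replication origins, *Pclaf* binds PCNA and *Cip2a* inhibits the phosphatase PP2A. *Pclaf* and *Diaph3* were lower in members than in histone-high cells, by log2 -0.80 to -0.67 and -0.58 to -0.43.

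Cell cycle brakes had no common direction. Of 21 G1 cyclin, CDK inhibitor and p53 target genes, 11 were compared, with a median log2 ratio of 0.07, 0.00, -0.29 and -0.06. Of these, 1 was higher and 2 were lower in all 4 libraries, against 43.3% and 26.3% of all genes compared, and 8 were of mixed sign. *Cdkn2d*, the inhibitor p19 of CDK4 and CDK6, was the one past 2-fold higher, at 51.4, 30.1, 61.5 and 45.9 CPM in members against 10.5, 8.06, 10.8 and 12.0. *Btg2*, an antiproliferative p53 target, was lower, at 325, 71.5, 33.6 and 76.2 CPM against 648, 136, 66.6 and 123. *Ccnd2*, cyclin D2, had a log2 ratio of -0.65, -0.54, -0.75 and -0.54. *Mxd4*, a MYC antagonist, and *Ypel3*, both outside the lists, were lower by ratios of -1.24 to -0.87 and -1.27 to -0.89.

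Members varied among themselves along the sum of the marker UMIs. They were split at sums of 10 to 14 (364, 374, 344 and 257 cells), 15 to 29 (583, 488, 653 and 353) and 30 or more (349, 240, 467 and 246). Depth went with the sum, with a median of 21214, 22823, 20264 and 23520 UMIs in the lowest class and 35659, 39667, 36474 and 41001 in the highest. *Nusap1* stood at 19.3, 16.9, 12.7 and 10.9 CPM in the lowest class and at 142, 106, 130 and 111 in the highest. *Prc1* went from 55.5, 69.3, 56.7 and 53.4 CPM to 442, 431, 474 and 393. *Birc5* went from 295, 273, 250 and 180 CPM to 425, 400.1, 395 and 395, a log2 ratio of 0.53, 0.55, 0.66 and 1.14. *Dcn*, a matrix gene, was level, with log2 ratios between the classes of -0.04 to 0.11. The part of depth in these differences was not tested.

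Members without a *Top2a* UMI (305, 332, 400 and 306 cells) were compared with those with one (991, 770, 1064 and 550). *Top2a* encodes the topoisomerase that untangles sister chromatids. *Aurkb* stood at 4.69, 5.97, 4.35 and 3.24 CPM without and at 48.1, 35.1, 47.3 and 31.3 with a *Top2a* UMI, a log2 ratio of -3.36, -2.55, -3.44 and -3.27. *Nusap1* stood at 9.96, 12.2, 7.43 and 8.46 CPM against 94.4, 66.3, 92.8 and 74.7. *Prc1* stood at 44.5, 62.6, 46.0 and 52.7 CPM against 289, 280, 334 and 274. *Incenp* and *Cdkn2d* were lower as well, with log2 ratios between -2.69 and -1.93.

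Levels of the rule genes across this split are a description, since every member on either side had to carry 10 or more of their UMIs in sum. *Cdc20* was counted at 178, 159, 212 and 155 CPM without and at 203, 176, 254 and 224 with a *Top2a* UMI. *Cenpa* stood at 316, 272, 304 and 297 CPM against 283, 257, 280 and 318. *Aurka* was past 2-fold lower without a *Top2a* UMI in every library, with a log2 ratio of -1.90, -1.15, -1.63 and -1.83, and *Plk1* and *Ccnb1* had ratios between -0.995 and -0.71. Of the genes that the rule did not use, *Ube2c* had a log2 ratio of -1.91, -1.56, -1.94 and -2.24. *Birc5* had log2 ratios between -0.53 and -0.16 and *Bub1* between -0.50 and -0.11, while *Ccna2* lay between -0.92 and -0.53. *Hist1h2bc* was higher without a *Top2a* UMI, at 68.0, 75.2, 143 and 195 CPM against 39.9, 61.1, 85.7 and 112. Depth differed, with a median of 20520, 23163, 21155 and 25034 UMIs without and 27758, 31587, 29589 and 30234 with a *Top2a* UMI. Among members with 20000 UMIs or more, a limit chosen after seeing the data, the ratios of *Aurkb* ran from -3.95 to -2.72, of *Prc1* from -2.99 to -2.30, of *Cdc20* from -0.74 to -0.35 and of *Cenpa* from -0.18 to 0.03. Depth still differed under this limit. The median was 26281, 27174, 25966 and 28753 UMIs without and 30538, 33822, 33196 and 33714 with a *Top2a* UMI.

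**Figure D4:**
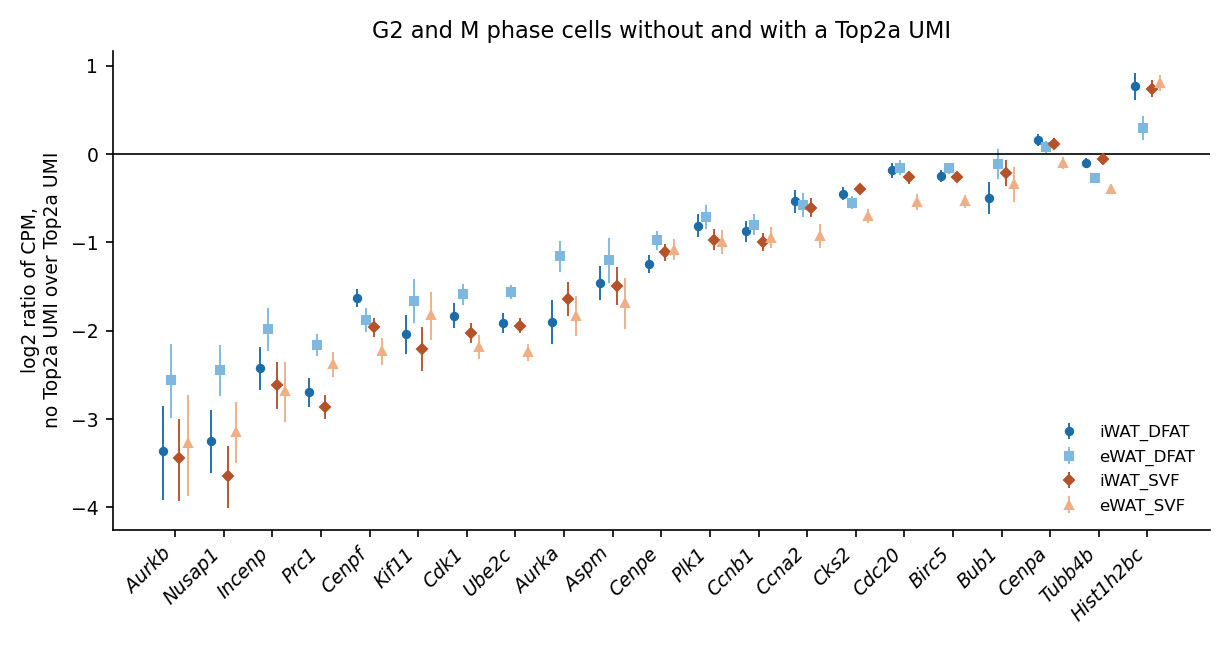
Points give the log2 ratio of CPM between members without and with a Top2a UMI in each of the 4 libraries, with exact conditional binomial intervals (counting error only). Aurkb and Nusap1 lie at -2.44 or below in every library. Cenpa lies between -0.10 and 0.16, but it is a gene of the rule, whose UMIs members on both sides of the split had to carry in sum.

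Only 4 genes were past 2-fold lower in members of all 4 libraries, *Cemip*, *Lrmda*, *Magi2* and *Rora*. The count was 2 with the members that met both rules in the reference, 2 without upper limits, 7 as a mean over cells, 7 without iWAT_SVF and 10 without eWAT_SVF. *Cemip* (ENSMUSG00000052353, chromosome 7, 83932857 to 84086502), which takes part in hyaluronan breakdown, was counted at 340, 115, 158 and 260 CPM in members and at 777, 276, 387 and 728 in reference cells. *Rora* (ENSMUSG00000032238, chromosome 9, 68653786 to 69388246), a nuclear receptor gene, stood at 193, 71.0, 68.6 and 77.3 CPM against 399, 180, 162 and 191. *Magi2* (ENSMUSG00000040003, chromosome 5, 19227036 to 20704792), a scaffold protein gene, stood at 49.1, 34.1, 48.1 and 25.7 CPM against 121, 87.8, 111 and 59.2. *Lrmda* (ENSMUSG00000063458, chromosome 14, 22019712 to 23056085) ranged widely between libraries, at 412, 93.6, 13.6 and 26.2 CPM against 994, 246, 27.4 and 54.4. *Magi2* and *Rora* were also lower than in histone-high cells, by log2 -1.27 to -1.10 and -1.05 to -0.61. The genome holds *Magi2* over 1478 kb, *Lrmda* over 1036 kb, *Rora* over 734 kb and *Cemip* over 154 kb. *Naaladl2*, which had a log2 ratio of -1.40 to -0.92, spans 1346 kb. Also named as lower outside the lists were *Tmtc2* (387 kb), *Mxd4* (13.8 kb), *Sod3* (7.63 kb), *Tspan17* (7.4 kb) and *Ypel3* (3.56 kb). *Diaph3*, past 2-fold higher in members, spans 486 kb.

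Median ratios were lowest for the class of genes longest on the genome, and gene length was not used by the rule. Of the genes compared, 5390 had a length in the GENCODE M21 annotation. The median log2 ratio was between -0.03 and 0.16 for the 3 classes under 10 kb, 10 to 50 kb and 50 to 200 kb, without a steady trend. For genes under 10 kb it was 0.09, 0.01, -0.03 and 0.02, and for genes of 10 to 50 kb 0.16, 0.09, 0.12 and 0.12. For 238 genes of 200 to 400 kb it was -0.20, -0.21, -0.06 and -0.15. For 94 genes of 400 kb or more it was -0.43, -0.38, -0.29 and -0.36. Of them, 74 (78.7%) were lower in all 4 libraries, against 26.3% of all genes compared. Of these 94, 15 (16.0%) were past 1.5-fold lower in all 4, against 41 of all 5392 (0.760%). Of 1293 genes under 10 kb, 14 (1.08%) were. Against histone-high cells, the median of the longest class ran from -0.48 to -0.33.

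The counting included intronic reads per the study's methods, and long genes hold most intron sequence. Genes of 200 kb or more, 1077 in number, took 4.28%, 3.13%, 3.59% and 3.20% of the UMIs of a median member. In a median reference cell they took 5.62%, 3.92%, 4.10% and 3.73%, in a median histone-high cell 5.03%, 3.97%, 4.37% and 4.11%, and in RNA outside cells 5.06%, 4.38%, 3.62% and 4.16%. Members thus had the lowest share of the 3 groups of cells in every library. With reference cells weighted to the depth of the members, the median of the longest class was between -0.47 and -0.25. The parts of depth and of intronic reads in the ratios of long genes were not tested.

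**Figure D5:**
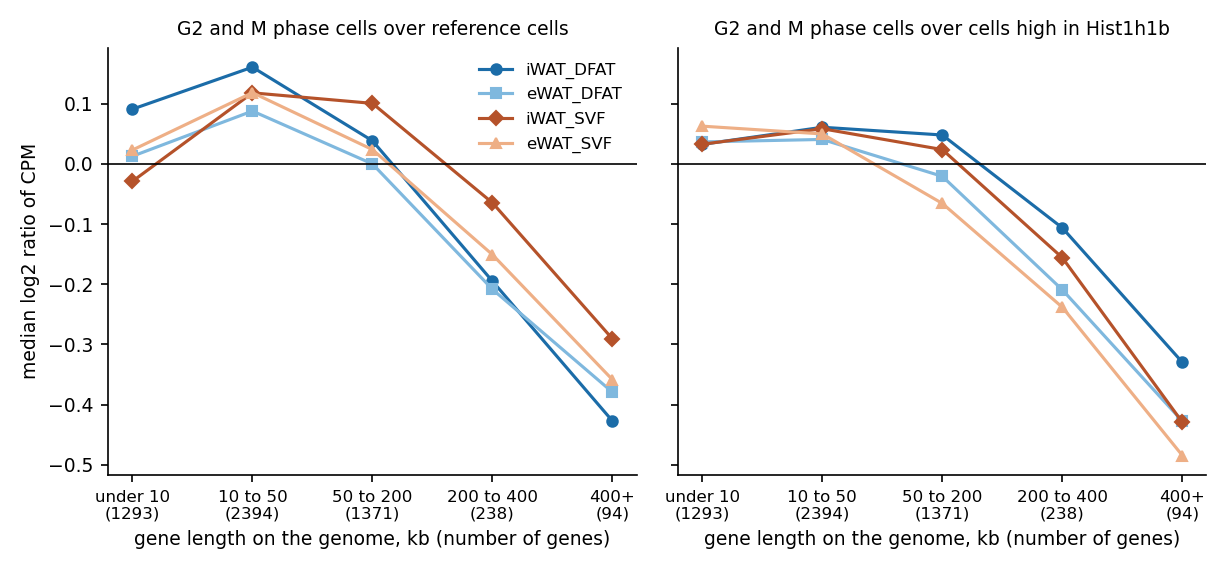
Lines give the median log2 ratio of CPM over genes grouped by their length on the genome (kb, number of genes in brackets), for G2 and M phase cells over reference cells at left and over histone-high cells at right, 1 line per library. In both panels the class of 400 kb or more was lowest in all 4 libraries, between -0.43 and -0.29 at left and between -0.48 and -0.33 at right.

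RNAs held back in the nucleus were lower as well. Of 9 listed, 6 were compared and 5 were lower in all 4 libraries, against 26.3% of all genes compared, with a median log2 ratio of -0.33, -0.51, -0.46 and -0.41 and none past 2-fold in all 4. *Malat1*, an abundant RNA of nuclear speckles, was counted at 6755, 4157, 6223 and 4216 CPM in members and at 10226, 8545, 9676 and 7166 in reference cells. Among members it went from 4691, 3647, 4550 and 3986 CPM at marker sums of 10 to 14 to 8930, 5157, 7335 and 4574 at 30 or more. It stood at 4261, 3284, 4131 and 3124 CPM without a *Top2a* UMI and at 7341, 4454, 6809 and 4726 with one. *Neat1* went the other way along the sum, by log2 -0.91 to -0.21. *Meg3* stood at 199.6, 64.8, 360.4 and 221 CPM against 289, 123, 564 and 375. *Neat1*, the scaffold of paraspeckles, had a log2 ratio of -0.43, -0.51, -0.70 and -0.49.

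Of 18 immediate early genes, which answer growth signals and stress within minutes, 15 were compared, 13 were lower in every library and none was past 2-fold lower in all 4 (median -0.48, -0.51, -0.45 and -0.42). *Fos* stood at 384, 33.4, 71.7 and 139 CPM in members and at 606, 81.8, 137 and 229 in reference cells. *Dusp1*, a MAP kinase phosphatase, had a log2 ratio of -0.70, -0.86, -0.79 and -0.85. Of 14 inflammatory and NF-κB genes compared, of 23 listed, 8 were lower in every library, against 26.3% of all genes compared, and none past 2-fold in all 4. The medians were -0.60 and -0.59 in DFAT members but -0.09 and -0.20 in SVF members. *Il6* stood at 168, 74.3, 12.5 and 28.0 CPM against 295, 139, 20.5 and 40.3.

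Matrix genes were mostly lower in members. Of 26 listed collagen and matrix genes, 23 were compared and 20 were lower in all 4 libraries, against 26.3% of all genes compared, and none past 2-fold in all 4, with a median log2 ratio of -0.44, -0.39, -0.29 and -0.35. *Dcn* (decorin) stood at 1227, 202, 147 and 225 CPM in members and at 2236, 311, 229 and 342 in reference cells. *Fn1* (fibronectin) stood at 469, 779, 1087 and 986 CPM against 765, 1018, 1420 and 1395. Against histone-high cells the list's median was between -0.18 and 0.00.

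Of 13 adipogenic and lipid genes compared, of 19 listed, 10 were lower in every library, against 26.3% of all genes compared, and none past 2-fold in all 4. *Fabp4*, the fatty acid binding protein of adipocytes, was counted at 215, 1251, 63.5 and 248 CPM in members and at 453, 3545, 102 and 382 in reference cells. *Scd1*, a fatty acid desaturase, stood at 66.7, 54.7, 44.5 and 39.6 CPM against 117, 248, 55.1 and 51.0, so that the eWAT_DFAT library had by far the largest gap. *Lpl* had a log2 ratio of -0.39, -0.84, -0.23 and -0.33. Cells with 3 or more of 8 adipocyte markers made up 3.40%, 3.90%, 0.0683% and 0.234% of members and 4.61%, 9.81%, 0.189% and 0.290% of reference cells, and their part in these ratios was not tested. *Lep*, the leptin gene, had no UMI in any member.

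Housekeeping groups were close to level. The median log2 ratio of 78 ribosomal protein genes was -0.02, 0.03, -0.10 and -0.06, of 14 glycolysis genes -0.08, -0.14, -0.10 and -0.05, and of 12 mitochondrially encoded transcripts -0.13, -0.24, -0.04 and -0.07. Of 18 heat shock and chaperone genes compared, 16 were higher in every library, against 43.3% of all genes compared, and none past 2-fold in all 4, with a median of 0.26, 0.19, 0.15 and 0.23. *Hsp90aa1* stood at 1043, 1261, 1091 and 1018 CPM in members and at 675, 978, 764 and 707 in reference cells. The 14 contractile genes compared had a median of 0.23, -0.03, -0.05 and -0.09, and *Ccn2*, a target of mechanical signalling placed among them, one of -0.28, -0.65, -0.54 and -0.94.

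Markers of other cell types were counted per cell without thinning to one depth, and members were deeper than reference cells. The summed level of 16 stromal progenitor markers was lower in members in each library, at 2355, 1171, 1972 and 1359 CPM against 3066, 1285, 2162 and 1539. Of the 16, 7 were compared, of which 3 were lower in all 4 libraries and 4 were of mixed sign. Their median log2 ratio was -0.32, -0.11, 0.02 and -0.02. With cells thinned to one depth, *Pdgfra*, by which the study annotated ASPCs, was seen in 61.0%, 36.5%, 36.7% and 34.7% of members. In reference cells its shares were 69.8%, 33.7%, 27.8% and 28.9%. Cells with 3 or more of the stromal progenitor markers made up 99.8%, 99.1%, 99.5% and 99.3% of members and 98.8%, 90.7%, 95.1% and 95.9% of reference cells. This asked for 3 of 16 genes, while the other lists asked for 3 of 8. The 16 include *Itgb1*, which had a UMI in 99.2%, 99.7%, 99.8% and 99.8% of members and 97.6%, 94.6%, 97.8% and 98.1% of reference cells. The share of cells thus says little of cell identity. Cells with 3 or more of 8 endothelial markers made up 0.154%, 0.544%, 0.956% and 2.45% of members against 0.319%, 4.73%, 1.10% and 3.06%. For pericyte markers the shares were 0.231%, 0.907%, 4.58% and 2.45% against 0.435%, 3.76%, 3.27% and 2.10%, while their summed level was lower in members in each library, at 15.6, 14.6, 42.8 and 33.0 CPM against 42.02, 39.99, 52.6 and 41.6. Mesothelial markers were met by 6.89% of eWAT_SVF members and 6.38% of its reference cells, and by 0.544% of eWAT_DFAT members and 1.10% of its reference cells. In the iWAT libraries 0 of 1296 and 0 of 1464 members met them, which allows up to 0.284% and 0.252% (exact 95% limits). Glial markers were met by 14 members of iWAT_SVF (0.956%) and by 1 in the other libraries together. In reference cells the glial shares were 0.406%, 0.0845%, 2.96% and 0%. Immune markers were met by at most 0.701% of members and 0.419% of reference cells. *Higd1b*, *Foxd3*, *Tie1*, *Ptprc* and *Muc16* were among the markers without a UMI in members of at least 1 library. The part of these cells in the ratios was not tested.

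Members of different libraries were also compared with each other. Among genes at 20 CPM or more in the higher library, 10.1% of 6622 were past 2-fold between iWAT_DFAT and eWAT_DFAT members, against 13.9% of 6530 between the reference cells of the same libraries. Between the SVF libraries the shares were 5.21% and 5.95%. From iWAT_SVF to iWAT_DFAT they were 12.7% and 17.5%, and from eWAT_SVF to eWAT_DFAT 10.7% and 12.9%. In each of these comparisons the share was smaller among members, and the comparisons share libraries with each other.

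Contractile genes had a median log2 ratio of -1.85 between iWAT_DFAT and eWAT_DFAT members and of -2.02 between reference cells. For inflammatory and NF-κB genes it was 0.97 and 1.06. Between iWAT_DFAT and iWAT_SVF members the contractile median was -2.08 and the inflammatory one 3.14, beside -2.45 and 3.30 in reference cells. Between the SVF libraries the contractile median was -0.18 in members and the inflammatory one 0.21, beside -0.30 and 0.055 in reference cells. From eWAT_SVF to eWAT_DFAT they were -0.63 and 1.40 in members and -0.84 and 1.88 in reference cells. The published G2M score genes, whose levels in members the rule sets in part since it asks for UMIs of *Cdc20*, *Aurka* and *Cenpa* in every library, had medians of 0.48 between the DFAT libraries, 0.40 between the SVF libraries, 0.09 from iWAT_SVF to iWAT_DFAT and 0.01 from eWAT_SVF to eWAT_DFAT. In reference cells, where 16 to 20 of these genes were compared, the medians were -0.19, 0.23, 0.03 and 0.41, so that the sign differed for the DFAT libraries. The file header of iWAT_SVF names another Cell Ranger version (4) than those of the other libraries (7.1.0), and the part of this in the comparisons with iWAT_SVF was not tested. With 1 library per condition, the culture, the animals and the library preparation cannot be told apart in these differences.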

How the data were processed

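Single-cell RNA libraries of 4 cultures were used as deposited, as counts of UMIs per gene (32285 genes) and droplet barcode. The authors counted reads with Cell Ranger against mm10, introns included. The submitters' processing notes name version 7.0.0, and the file headers name 7.1.0 for 3 libraries and 4 for iWAT_SVF. Empty droplets are included, so the counts precede the ambient RNA, doublet and integration steps of the Methods, none of which was repeated. Libraries held 211396227 to 242282812 UMIs.

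The members and the gene lists were chosen with earlier results of these data known. UMIs were summed per library and group and scaled to 1000000 per group (CPM), with exact 95% Poisson intervals in the tables. Log2 ratios carry exact conditional binomial intervals. Intervals cover counting error only. No pseudocount was used, and genes under 20 CPM in both groups of any library were not compared. No test was made, since the rule used the measured genes and each condition had 1 library.

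Named genes are the rule genes, *Cenpf*, *Hist1h1b* and *Top2a*, up to 4 genes per list with the largest ratio in their lowest library, any list gene past 2-fold against its list, and 10 genes per direction outside the lists. Exceptions are stated where they occur. Some results that the rule would name are not reported here. Of symbols listed more than once, the row with more UMIs was used. Lists of ribosomal protein and mitochondrial genes were added by name pattern. Counting was not stated to resolve overlapping or near-identical genes, which leaves *Tubb4b*, *Hist1h2bc* and ribosomal protein genes uncertain.

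Gene positions come from GENCODE M21 and promoters from RefSeq on GRCm38.p6, of which the first listed per gene was used. For the shares of cells with a UMI, each cell was also cut down at random to 5000 UMIs. The ratios, intervals and call rule were tested on simulated sums with 200 changed genes. Alternatives changed 1 choice at a time, though a higher marker limit also changed which cells were set aside from the reference. Sums and intervals were computed with scipy 1.17.1, pandas 2.3.3 and numpy 2.4.6 under Python 3.11.15, doublet scores with scanpy 1.11.5 and figures with matplotlib 3.10.9.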

Additional observations from a re-analysis of the deposited data

Results flagged for a closer look

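Barcodes over the upper limits of 7500 genes or 75000 UMIs, which no comparison used, met the marker rule more often than barcodes within the limits. Of 270, 316, 429 and 409 such barcodes in iWAT_DFAT, eWAT_DFAT, iWAT_SVF and eWAT_SVF, 28.9%, 21.8%, 34.0% and 23.96% had 10 or more marker UMIs and fewer than 3 *Hist1h1b* UMIs, against 16.99%, 17.05%, 19.7% and 12.7% within the limits. They were drawn out as a signal in data left out of the report. The part of depth in this was not tested. With 1 library per condition, no group was large enough to look for samples that stand apart.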

How the results depend on the processing

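The mean share over the 4 libraries, 16.6%, was 23.5% with at least 5 marker UMIs, 8.45% with at least 20, 11.7% with no *Hist1h1b* UMI, 15.7% from 500 UMIs, 17.1% without upper limits 16.1% with doublets removed and 24.2% without the *Hist1h1b* limit, a setting chosen after seeing the data. eWAT_SVF was lowest in all 10 settings and iWAT_SVF highest in 9; without that limit eWAT_DFAT was highest, at 27.7% against 26.4%. iWAT_DFAT lay above eWAT_DFAT in 4 of the 10. The 160 genes past 2-fold higher became 297 at 5 CPM, 389 without a filter and 286 at a fold of 1.5, and 162 to 185 with 1 library left out. The 4 past 2-fold lower became 13, 108 and 41 in the same order, 2 with members lacking both *Hist1h1b* and *Top2a* UMIs put back into the reference, 2 without upper limits and 7 as a mean over cells. With 1 library left out they numbered 4 to 10, with 7 without iWAT_SVF and 10 without eWAT_SVF.

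List medians below are means over the libraries. With those members in the reference, the medians were 3.42 for rule genes, 2.14 for mitotic cyclins, 2.36 for the spindle checkpoint, 3.22 for the passenger complex, 2.24 for kinetochores, 3.47 for kinesins, 2.51 for spindle assembly, 2.46 for condensins, 2.81 for the G2M score and -0.42 for immediate early genes. With at least 20 marker UMIs they were 4.11 for rule genes, 3.33 for mitotic cyclins, 4.14 for kinesins and 3.33 for the G2M score. Under that limit, cells with fewer than 20 marker UMIs were no longer set aside as members. Those with neither a *Hist1h1b* nor a *Top2a* UMI then counted as reference cells. These medians thus do not compare cells of higher marker sums with the main reference. With free RNA subtracted they were 5.39 for rule genes, 3.13 for the checkpoint, 4.53 for the passenger complex, 2.93 for kinetochores and 5.09 for kinesins. With no *Hist1h1b* UMI they were 3.13 for the checkpoint and 2.31 for kinetochores. With reference cells weighted by depth they were 3.03 for the checkpoint, -0.40 for immediate early genes, -0.53 for nuclear-retained RNAs, -0.028 for mitochondrial transcripts and 0.00898 for histones, a reversal. Histones also reversed at 5 CPM (0.66, 0.56 for the anaphase promoting complex) and were -0.13 without upper limits, where the checkpoint was 3.10. By median of ratios, histones were -0.11, immediate early genes -0.51 and glycolysis -0.14. As a mean over cells, histones were -0.0079, nuclear-retained RNAs -0.34 and the G2M score 3.30, and with doublets removed immediate early genes were -0.51. The cause of these shifts was not tested. No named gene reversed, but the ratios of 56 of 129 named genes moved by more than the spread over the libraries with those members in the reference, 43 with free RNA subtracted, 32 with at least 20 marker UMIs, 17 with reference cells weighted by depth and 4 to 9 under the other settings.

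No paired analysis was made, since no result came from a test and each condition had 1 library. Depth limits genes under 20 CPM, which were not compared.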

Other observations

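Genes outside the lists that were past 2-fold higher than in reference cells in all 4 libraries, chosen here after their values were seen, differed in how they compared with histone-high cells. Values follow the order iWAT_DFAT, eWAT_DFAT, iWAT_SVF and eWAT_SVF. *Cdkn3*, a phosphatase that acts on CDKs, was counted at 85.1, 65.7, 116 and 155 CPM in G2 and M phase cells, 17.3, 14.7, 22.2 and 25.9 in histone-high cells and 14.5, 13.8, 17.7 and 20.3 in reference cells. It thus stood well above both other groups. *Ezh2*, the histone H3 lysine methyltransferase of the Polycomb complex, was counted at 70.1, 88.7, 80.4 and 55.4 CPM in G2 and M phase cells, 125, 142, 124 and 92.8 in histone-high cells and 23.7, 36.7, 28.9 and 19.0 in reference cells, so that it was highest in histone-high cells.

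*Tk1*, thymidine kinase, had a log2 ratio to reference cells of 2.83, 2.29, 3.27 and 3.24. *Dnmt1*, the maintenance DNA methyltransferase, had one of 1.18, 1.10, 1.35 and 1.58. The ratio of *Terf1*, a telomere binding protein gene, was 2.10, 1.81, 2.03 and 1.83. The histone variant genes *H2afz* and *H2afx* were higher, by 1.33, 1.32, 1.62 and 1.65 and by 2.29, 1.45, 2.26 and 1.98.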
